A study of Mus musculus with 6 samples.

Results

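The genes of glycolysis and of the hypoxia response were examined in human cells with and without induced Rbfox1. This group of 36 genes, picked by symbol, holds the glucose and lactate transporters, the enzymes from hexokinase to lactate dehydrogenase, the kinases that regulate the pathway, the oxygen sensing genes and well known hypoxia targets. They were 36 of 58870 genes in the data, with 436 of 208621 isoforms. Transcript abundance was measured by RNA-seq of mRNA in 3 samples treated with doxycycline (Dox) and 3 untreated samples (No Dox). Treatment lasted 48 h. The dose is 0.5 mg/ml in the labels and methods, while figure legends of the study give micrograms per ml.

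All 6 samples were of 1 clone, 77-5. It was derived from T-REx-293, a HEK293 (human embryonic kidney) line that carries the tetracycline repressor and, in this case, a knocked-in Rbfox1 under doxycycline control. The clone also holds a minigene of mouse Ntrk2 (TrkB) in a bacterial artificial chromosome. Both groups therefore shared the transgene and the minigene. The Dox samples differed in doxycycline and in Rbfox1 at once, and the effects of the drug and of the protein cannot be told apart. The labels name mouse as the organism, but the transcripts quantified are human. Separate cultures are not stated for the replicates, so p-values measure the spread between these samples, which may be technical.

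Glycolysis splits glucose into pyruvate in the cytosol and yields ATP without oxygen. Lactate dehydrogenase then turns pyruvate into lactate, which regenerates the NAD+ that the GAPDH step consumes. When oxygen is low, prolyl hydroxylases no longer mark the transcription factor HIF-1 alpha for destruction by the VHL ubiquitin ligase, and HIF-1 then raises the transcription of many glycolytic genes and of genes such as VEGFA and CA9. HEK293 cells grow fast and consume much glucose in culture.

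Total expected counts, the fragments assigned to all genes, were 59822964 to 65774104 in the Dox samples and 62344973 to 65758236 in the No Dox samples. RBFOX1 stood at 189.8, 188.9 and 186.4 TPM in Dox and at 6.92, 8.42 and 7.26 TPM in No Dox. TPM is an abundance that takes isoform length into account and sums to the same total in each sample. The log2 fold change of RBFOX1 was 4.55 ± 0.06 (SE), in the direction of the labels. Its relative RBFOX2 fell, with a log2 fold change of -1.71 ± 0.03 (SE). RBFOX2 averaged 17.0 ± 0.88 TPM in Dox and 48.3 ± 1.6 TPM in No Dox (SD, n = 3 each), and its part in the results was not tested. Of the epithelial and kidney markers VIM, KRT8 and KRT18 were abundant, with KRT8 at 187.6 ± 7.7 TPM in Dox and 227.1 ± 2.5 TPM in No Dox (SD, n = 3 each) and KRT18 at 120.8 ± 0.96 TPM in Dox and 154.5 ± 2.9 TPM in No Dox. KRT8 and KRT18 fell, with log2 fold changes of -0.32 and -0.39, and their part in the results was not tested. Of 8 such markers 7 were tested, of which 1 rose and 3 fell (57.1% called, beside 51.4% of all genes tested). PAX8 was at or near 0 in every sample, as were the blood and endothelial genes PTPRC, HBB, CDH5 and PECAM1. Of 10 markers of blood, liver, endothelium, muscle and glia 4 were tested and 1, MYH3, fell (25% called, beside the same 51.4%). Not all of the 10 were absent. CD68 averaged 9.75 ± 0.81 TPM in Dox and 9.46 ± 0.43 TPM in No Dox. MYH3 averaged 2.16 ± 0.10 TPM in Dox and 3.59 ± 0.71 TPM in No Dox.

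More members fell than rose with Dox, by small amounts. Of 35 members tested, 17 fell (48.6%), 7 rose (20%) and 11 did not pass an adjusted p of 0.05 by edgeR's quasi-likelihood test. Among all 18264 genes tested, 51.4% were called, 26.5% as lower and 24.9% as higher. The median log2 fold change of the members was -0.14, and that of all genes was 0.0045. PGAM1 fell by 5.66%, the least of the 17, and HK2 fell by 30.6%, the most. The 7 members that rose were higher by 6.14% (VHL) to 50.5% (BNIP3L). No tested member reached a 2-fold change, so no call is left where that fold is required. In bulk samples, fewer cells of a type and less RNA per cell cannot be told apart. The low spread between replicates, a biological coefficient of variation of 2.87%, let such small differences pass. With scaling by library size alone, 16 members fell and 7 rose, while the split of all genes moved to 5682 higher and 3753 lower calls, against 4543 and 4841 with TMM.

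**Figure D1:**
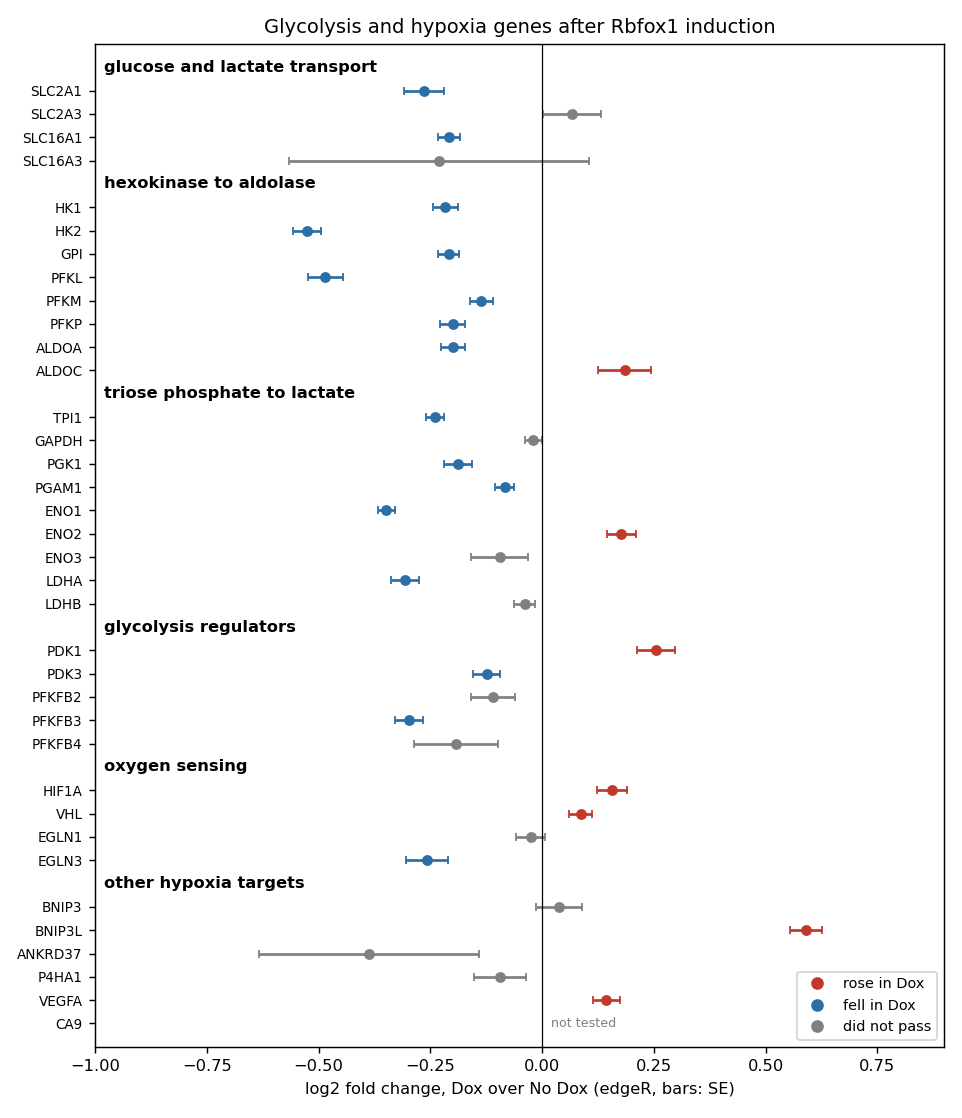
Log2 fold change of each member gene, Dox over No Dox, from edgeR, with bars of 1 SE, ordered by role and coloured by the call. Of the 17 enzymes from HK1 to LDHB, 12 lie below 0 as called falls and 2, ALDOC and ENO2, lie above 0 as called rises, while BNIP3L is the highest member at 0.59.

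Glucose enters through facilitative transporters and lactate leaves through monocarboxylate transporters. Of these 4 genes, 2 fell and 2 did not pass, so 50% were called, near the 51.4% of all genes. SLC2A1 (ENSG00000117394.21), which encodes the transporter GLUT1, stood at 38.1, 37.5 and 34.0 TPM in Dox and at 45.4, 42.8 and 40.3 TPM in No Dox. Every Dox sample lay below every No Dox sample. Its log2 fold change was -0.26 ± 0.04 (SE; adjusted p = 1.2e-04 by edgeR). SLC16A1 (ENSG00000155380.11), encoding the lactate carrier MCT1, averaged 105.2 ± 2.9 TPM in Dox and 119.0 ± 0.82 TPM in No Dox (SD, n = 3 each). It fell by 0.21 on the log2 scale. Reads of its antisense partner SLC16A1-AS1 were 8.5% to 9.55% of the summed counts of both genes, and SLC16A1-AS1 fell alike, with a log2 fold change of -0.22. The strand setting of the counting is not given, so exchange of reads between them was not tested.

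SLC2A3, the neuronal glucose transporter GLUT3, was much less abundant, at 4.03 ± 0.51 TPM in Dox and 3.66 ± 0.20 TPM in No Dox, with overlapping groups. The pseudogene SLC2A3P1 and its like held 0.059% to 22.6% of the summed counts in single samples. With those counts added to it, SLC2A3 passed with a log2 fold change of 0.20 (adjusted p = 0.043 by edgeR), against 0.07 (adjusted p = 0.41) without them. The close paralog SLC2A14 can exchange reads with it as well, so its value is uncertain. SLC16A3, the lactate exporter MCT4, was near the floor, with 42 counts over the 3 Dox samples and 48 over the 3 No Dox samples. A log2 fold change of -0.23 ± 0.34 (SE) could not be told from 0 at this depth.

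The upper pathway, from hexokinase to aldolase, changed throughout. Of its 8 genes 7 fell and 1, ALDOC, rose, so 100% were called, beside 51.4% of all genes. HK2 (ENSG00000159399.9), the inducible hexokinase bound to mitochondria, stood at 19.1, 18.5 and 18.0 TPM in Dox and at 26.4, 25.7 and 25.9 TPM in No Dox. The groups lay far apart relative to their spread. With a log2 fold change of -0.53 ± 0.03 (SE; adjusted p = 9.6e-10 by edgeR), it had the largest fall among the 35 members tested. HK1 (ENSG00000156515.23), the hexokinase of most tissues, was more abundant, at 65.4, 66.1 and 63.2 TPM in Dox against 74.6, 72.8 and 73.7 TPM in No Dox. It was also lower in every Dox sample, but fell by less, 0.22 on the log2 scale.

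Phosphofructokinase commits sugar to glycolysis, and its 3 subunit genes fell by unequal amounts. PFKL (ENSG00000141959.17), the liver type subunit, stood at 88.3, 83.2 and 88.1 TPM in Dox and at 114.9, 114.6 and 110.4 TPM in No Dox. This was the second largest fall among the tested members, with a log2 fold change of -0.48 ± 0.04 (SE; adjusted p = 3.3e-08 by edgeR). PFKP (ENSG00000067057.17), the platelet type and the most abundant of the subunits here, stood at 142.7, 138.6 and 133.2 TPM in Dox and at 160.3, 156.3 and 156.7 TPM in No Dox. Its log2 fold change was -0.20 ± 0.03 (SE). PFKM (ENSG00000152556.17), the muscle type, stood at 67.0, 64.7 and 63.7 TPM in Dox and at 68.7, 71.2 and 69.9 TPM in No Dox. The PFKM groups lay close together without overlap, and the log2 fold change was -0.14 ± 0.03 (SE).

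Beside them, GPI, which converts glucose 6-phosphate to fructose 6-phosphate, averaged 574.7 ± 25.5 TPM in Dox and 638.8 ± 15.5 TPM in No Dox, and fell by 0.21 on the log2 scale. ALDOA, the main aldolase, averaged 1184 ± 63 TPM in Dox and 1332 ± 6.9 TPM in No Dox and fell by 0.20. ALDOC, the brain aldolase, was near 1% of that level, at 13.4, 11.5 and 12.7 TPM in Dox and at 10.8, 10.5 and 10.5 TPM in No Dox. It rose by 0.18 ± 0.06 on the log2 scale (adjusted p = 0.015 by edgeR). That call was lost with DESeq2 (adjusted p = 0.068), without Dox replicate 1 (0.075) and without No Dox replicate 3 (0.058).

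**Figure D2:**
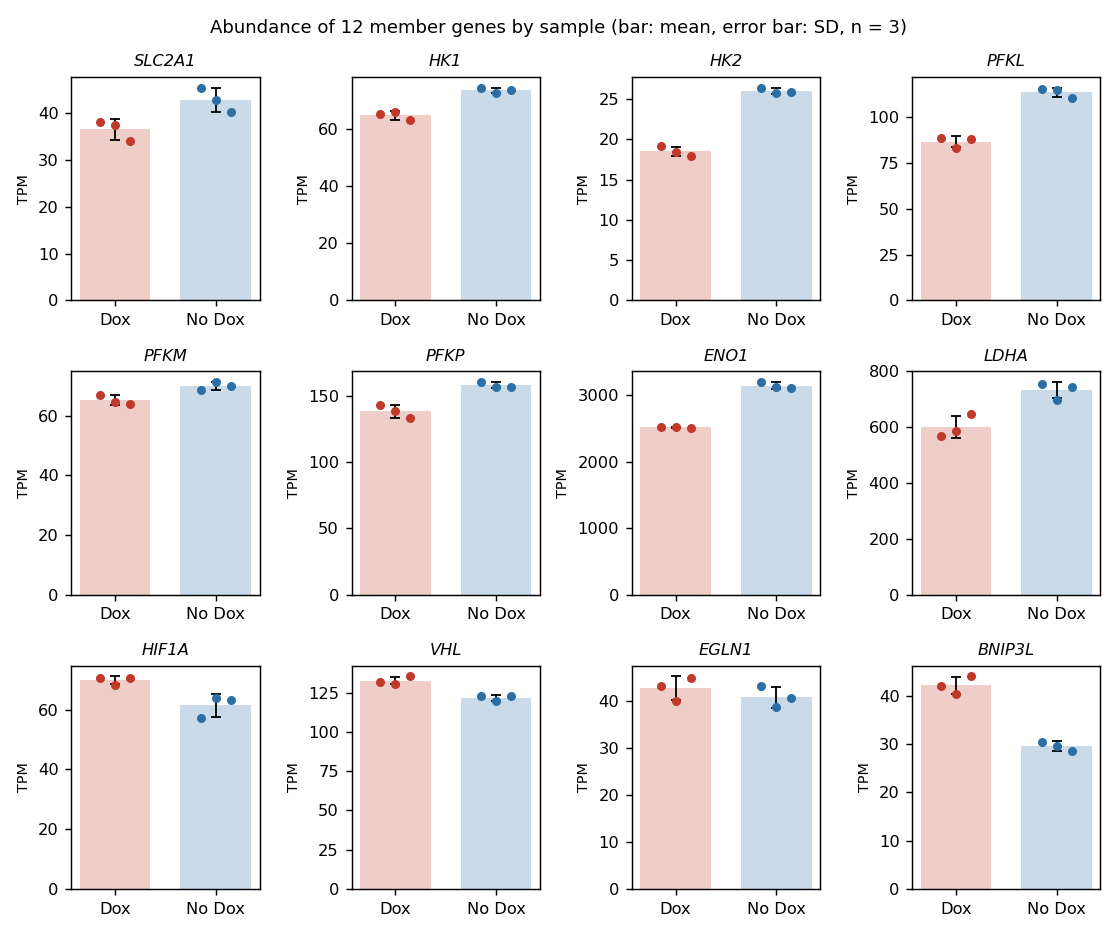
Abundance in TPM of 12 members in each sample, Dox left and No Dox right, with bars for the mean of 3 samples and error bars for the SD. HK2 lies at 18.0 to 19.1 TPM in Dox and 25.7 to 26.4 TPM in No Dox, BNIP3L lies higher in Dox, and EGLN1 overlaps between the groups.

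The lower pathway, from triose phosphate to lactate, was more mixed: 5 genes fell, 1 rose and 3 were not called, of 9. The called share was 66.7%, beside 51.4% of all genes. ENO1 (ENSG00000074800.15), the ubiquitous enolase, stood at 2522, 2517 and 2508 TPM in Dox and at 3196, 3124 and 3110 TPM in No Dox. The Dox samples were nearly level with each other and lay well below the No Dox samples. The log2 fold change was -0.35 ± 0.02 (SE; adjusted p = 4.4e-10 by edgeR). The neuronal enolase ENO2 moved the other way, with 65.1 ± 1.5 TPM in Dox and 57.2 ± 1.1 TPM in No Dox, and rose by 0.18. ENO3, the muscle enolase, did not pass, at 15.7 ± 0.51 TPM in Dox and 16.2 ± 0.97 TPM in No Dox.

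LDHA (ENSG00000134333.14), the dehydrogenase subunit that favours lactate formation and a classic HIF-1 target, stood at 570.0, 585.9 and 647.3 TPM in Dox and at 754.4, 699.2 and 744.4 TPM in No Dox. Both groups were wider than those of ENO1 and still did not overlap. The log2 fold change was -0.31 ± 0.03 (SE; adjusted p = 6.1e-07 by edgeR). The heart type subunit LDHB was more abundant and did not pass, at 1584 ± 40 TPM in Dox and 1585 ± 18 TPM in No Dox (SD, n = 3 each). Without Dox replicate 3 it passed, with a log2 fold change of -0.06 (adjusted p = 0.025 by edgeR). Among the single-gene steps, TPI1, the triose phosphate isomerase, averaged 1152 ± 4.1 TPM in Dox and 1323 ± 11 TPM in No Dox and fell by 0.24 on the log2 scale. PGK1, the first ATP-yielding enzyme, fell by 0.19, and the mutase PGAM1 by 0.08. The PGAM1 call was lost with scaling by library size alone (adjusted p = 0.15 by edgeR) and on log2(TPM + 1) (adjusted p = 0.080 by limma).

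GAPDH, the most abundant member, did not pass. In the study it was a loading control for protein and the reference gene for quantitative PCR. It stood at 4285, 4288 and 4226 TPM in Dox and at 4266, 4170 and 4199 TPM in No Dox, with overlapping groups. The log2 fold change was -0.02 ± 0.02 (SE; adjusted p = 0.41 by edgeR), and its sign turned under 2 other scalings, to 0.028 and 0.019. PKM, the pyruvate kinase gene, is not among the 36 and is named here because it fills the remaining step. It fell by 0.23 on the log2 scale, with 1359 ± 44 TPM in Dox and 1534 ± 8.9 TPM in No Dox.

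Since isozymes share a step, their TPM values were summed. In 10 of 12 steps every Dox sample lay below every No Dox sample, in 2 steps the groups overlapped, and in none was Dox higher throughout. Among all single genes of at least 5 TPM in a group, the groups did not overlap for 59.2%. Enolase had the largest difference, with 2605, 2596 and 2588 TPM in Dox against 3271, 3195 and 3184 TPM in No Dox, a ratio of means of 0.81. The ratio of means was 0.84 for hexokinase, 0.85 for phosphofructokinase and 0.87 for TPI1. GAPDH, at a ratio of 1.01, and lactate dehydrogenase, at 0.94, were the steps whose groups overlapped. Over all 17 enzymes the sum was 13434, 13395 and 13337 TPM in Dox and 14777, 14483 and 14548 TPM in No Dox. Without GAPDH the ratio of means was 0.88, against 0.92 with it. These sums are descriptions with no test.

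**Figure D3:**
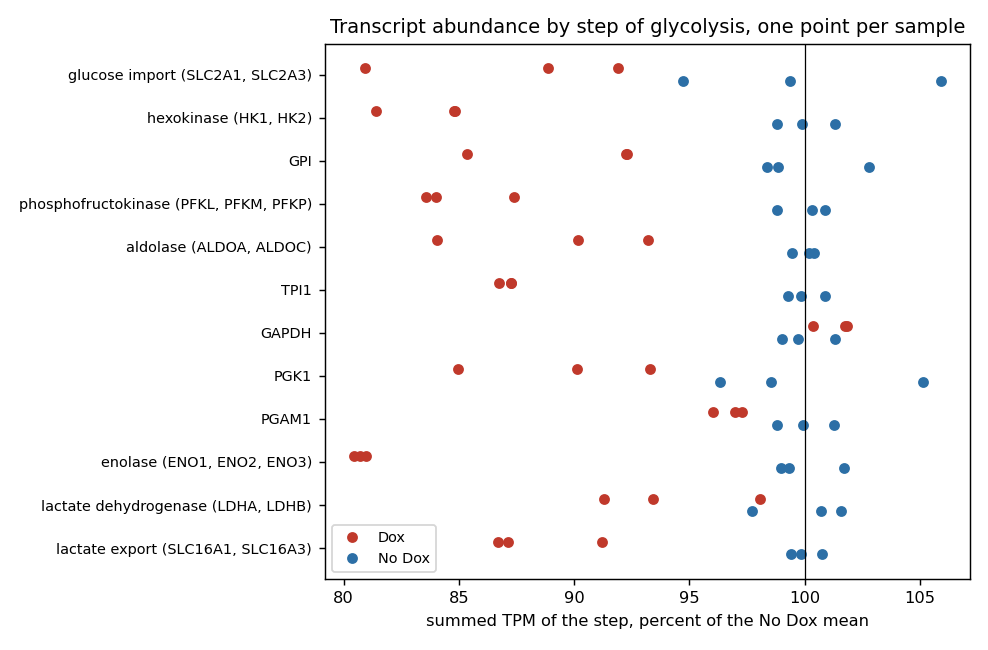
Summed TPM of each step of glycolysis as a percent of the No Dox mean of that step, 1 point per sample, Dox above No Dox within a step; the horizontal axis does not start at 0. Dox points lie left of all No Dox points except for GAPDH and lactate dehydrogenase, where the groups overlap.

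The unequal changes left a different mix of isozymes. LDHA made up 26.9%, 27.1% and 28.5% of the summed LDHA and LDHB transcripts in Dox and 32.0%, 30.9% and 31.9% in No Dox. HK2 made up 22.6%, 21.8% and 22.2% of hexokinase transcripts in Dox and 26.1%, 26.1% and 26.0% in No Dox. ENO2 held 2.51 ± 0.05% of enolase transcripts in Dox and 1.78 ± 0.01% in No Dox (SD, n = 3 each), and ALDOC held 1.05 ± 0.09% of aldolase transcripts against 0.79 ± 0.02%. PFKP held 47.7 ± 0.84% of phosphofructokinase transcripts in Dox and 46.3 ± 0.51% in No Dox. SLC2A3 held 9.92 ± 0.78% of both glucose transporters in Dox and 7.88 ± 0.52% in No Dox, with the pseudogene reads noted above left out. In 9 of 10 shares compared the groups did not overlap, SLC16A3 of the lactate carriers being the exception. The 59.2% given above is for TPM of single genes, and no matching figure was computed for shares. Each of the 9 had p = 0.1 by a two-sided exact permutation test, the smallest that 3 against 3 samples allow (0.11 after adjustment over 10 shares), so none could pass 0.05.

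**Figure D4:**
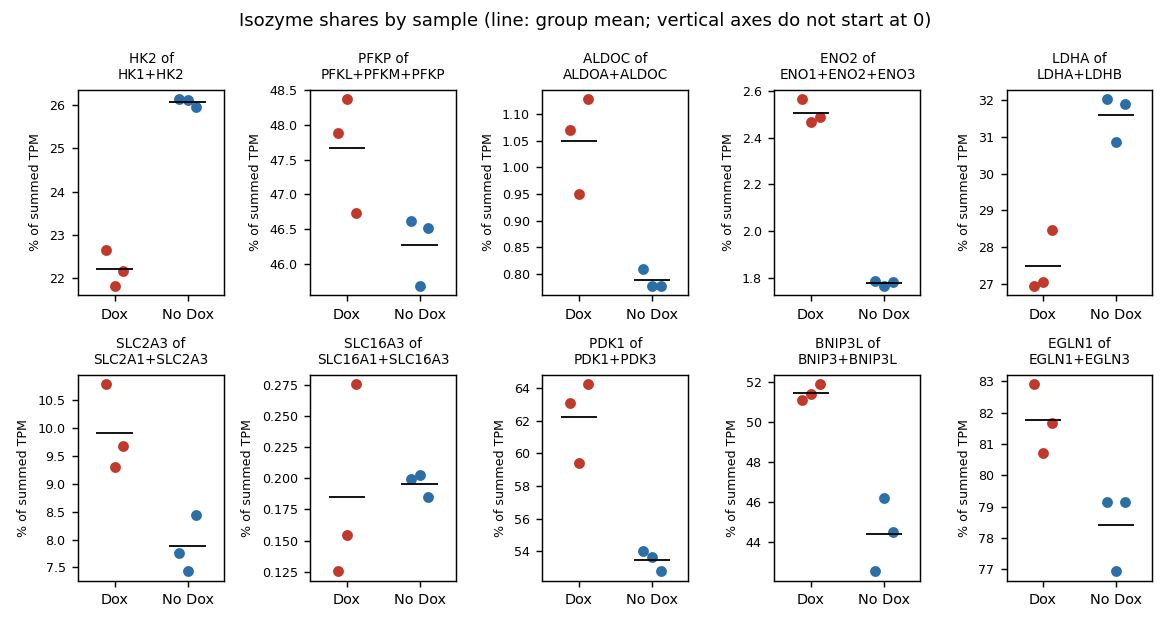
Share of 1 isozyme in the summed TPM of the members named in its panel, in percent, by sample, Dox left and No Dox right. Lines mark the group means, and vertical axes do not start at 0. Related genes that are not members, such as PDK2 and EGLN2, are left out. The groups are apart in 9 panels and overlap for SLC16A3, and PDK1 of PDK1 and PDK3 has the largest difference, 8.76 points.

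Among regulators, the PFKFB genes make and break fructose 2,6-bisphosphate, the activator of phosphofructokinase, and the PDK genes block pyruvate from entering the mitochondrial cycle. Of 5 genes, 1 rose, 2 fell and 2 did not pass, so 60% were called, beside 51.4% of all genes. PFKFB3, the form with the strongest kinase activity, averaged 25.5 ± 1.3 TPM in Dox and 29.2 ± 0.79 TPM in No Dox and fell by 0.30 on the log2 scale (adjusted p = 7.0e-07 by edgeR). PFKFB2 and PFKFB4 were lowly expressed, at 5.66 ± 0.63 and 2.69 ± 0.24 TPM in Dox and 5.44 ± 0.18 and 2.72 ± 0.44 TPM in No Dox, and did not pass. PFKFB2 passed as lower without Dox replicate 2 or 3 (adjusted p = 0.048 and 0.032 by edgeR) and without the filter on low counts (0.028), and PFKFB4 without No Dox replicate 3 (0.029). PDK1, a HIF-1 target, stood at 20.3, 17.8 and 20.7 TPM in Dox and at 17.1, 16.4 and 17.3 TPM in No Dox. It rose by 0.25 ± 0.04 on the log2 scale (adjusted p = 8.6e-05 by edgeR). Its relative PDK3 averaged 11.9 ± 0.32 TPM in Dox and 14.7 ± 0.70 TPM in No Dox and fell by 0.12 in the count-based test. Over the alternative fits the log2 fold change of PDK3 ranged from -0.29 to -0.08. PDK1 thus held 62.2 ± 2.5% of the transcripts of this pair in Dox and 53.5 ± 0.63% in No Dox. That share leaves out PDK2, which is not a member, was more abundant than either and did not pass. PDK2 averaged 25.2 ± 1.5 TPM in Dox and 24.3 ± 3.4 TPM in No Dox. PDK4, also left out, rose by 0.39 at a low level, 1.99 TPM in Dox and 1.46 TPM in No Dox.

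The oxygen sensing genes did not move as one. HIF1A (ENSG00000100644.17) encodes HIF-1 alpha, whose activity is set mainly through protein stability. It stood at 70.7, 68.2 and 70.5 TPM in Dox and at 57.1, 64.1 and 63.4 TPM in No Dox, and rose by 0.16 ± 0.03 on the log2 scale (adjusted p = 0.0012 by edgeR). No Dox replicate 1 lay below the other samples, and the groups did not overlap. VHL (ENSG00000134086.7), the substrate receptor that targets HIF-1 alpha, stood at 132.1, 130.9 and 135.6 TPM in Dox and at 123.0, 119.6 and 122.9 TPM in No Dox. It rose by 0.09 ± 0.02 (adjusted p = 0.0087 by edgeR), a call lost without No Dox replicate 2 (adjusted p = 0.060).

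EGLN1 (ENSG00000135766.8), the main prolyl hydroxylase PHD2, did not pass, at 43.27, 40.04 and 44.97 TPM in Dox and at 43.1, 38.7 and 40.7 TPM in No Dox, with overlapping groups. EGLN3, a hydroxylase that is itself induced by hypoxia, averaged 9.52 ± 0.59 TPM in Dox and 11.2 ± 0.46 TPM in No Dox and fell by 0.26 on the log2 scale. Thus the receptor gene and the factor gene were higher with Dox, while of the member hydroxylase genes EGLN3 was lower and EGLN1 was not separated. EGLN2, a further prolyl hydroxylase gene that is not a member, was more abundant than both and did not pass. It averaged 71.9 ± 3.2 TPM in Dox and 71.4 ± 1.0 TPM in No Dox.

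The remaining hypoxia targets held the largest rise among the tested members. BNIP3L (ENSG00000104765.16), a mitophagy receptor also called NIX, stood at 42.0, 40.4 and 44.1 TPM in Dox and at 30.5, 29.6 and 28.5 TPM in No Dox. All Dox samples were well above the No Dox samples. The log2 fold change was 0.59 ± 0.04 (SE; adjusted p = 1.5e-09 by edgeR). Its relative BNIP3, which has the same role, did not pass, at 39.7 ± 1.4 TPM in Dox and 37.1 ± 3.6 TPM in No Dox. BNIP3L made up 51.1%, 51.4% and 51.9% of the pair in Dox and 42.5%, 46.2% and 44.5% in No Dox.

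VEGFA, the growth factor of blood vessels, averaged 49.1 ± 1.8 TPM in Dox and 46.2 ± 0.55 TPM in No Dox and rose by 0.14 on the log2 scale, a call lost on log2(TPM + 1) (adjusted p = 0.082 by limma). P4HA1, a collagen prolyl hydroxylase, and ANKRD37, a small ankyrin protein, did not pass, with log2 fold changes of -0.09 ± 0.06 and -0.39 ± 0.25 (SE). Without No Dox replicate 3 ANKRD37 passed, with a log2 fold change of -0.66 (adjusted p = 0.012 by edgeR), and over the fits that left out a sample it ranged from -0.66 to -0.16 and P4HA1 from -0.15 to -0.03. ANKRD37 had only 146 counts over the Dox samples and 186 over the No Dox samples. CA9, a carbonic anhydrase often used as a marker of hypoxia, had 1 count over the Dox samples and 3 over the No Dox samples and was not tested. Both are at or under the floor of 3 counts per group, so no fold is given.

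Level and direction can be seen together in the TPM values. Of the 31 members with a mean of at least 5 TPM in a group, 24 had groups that did not overlap (77.4%), and the same held for 59.2% of 11504 such genes in all. Those 24 are the members that passed the test. The values of the members that fell span 9.52 to 2516 TPM in Dox, from EGLN3 to ENO1.

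Individual isoforms were tested with limma-voom on their estimated counts. Of 436 listed isoforms, 204 were tested and 41 were called (20.1%), 14 as higher and 27 as lower, in 24 genes. Over all isoforms tested, 12.6% were called, 6.19% as higher and 6.44% as lower. Most calls followed their gene: the main isoforms HK1-202, TPI1-202, PGAM1-201, SLC16A1-201 and ENO1-201 held nearly all of their gene in both groups and fell with it. The fall of HK2 was carried by both of its main isoforms, HK2-201 at 9.40 TPM in Dox and 14.3 TPM in No Dox and HK2-202 at 9.13 TPM in Dox and 11.6 TPM in No Dox. BNIP3L-201, with 73.4 ± 1.7% of its gene in Dox and 65.7 ± 3.1% in No Dox, rose by 0.66 on the log2 scale.

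Isoform usage asks whether an isoform moves differently from the rest of its gene. It was called in 8 of 32 member genes (25%), against 27.5% of 12328 genes in all, a share near the background. Values below are the isoform percentage, the percent of a gene's transcripts given to an isoform. RSEM divides shared reads among isoforms by a model, so each is an estimate. The largest changes were in regulators rather than in the enzymes of the main chain, among the 7 of these genes with at least 5 TPM in both groups.

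PDK3 had the largest change of these 7. PDK3-204 (12720 bases) held 21.3%, 28.3% and 32.0% of PDK3 in Dox and 10.4%, 7.92% and 12.2% in No Dox. PDK3-201 (1809 bases) held 23.7%, 16.3% and 18.0% in Dox and 32.5%, 33.7% and 38.2% in No Dox. Neither pair of groups overlapped, and the usage call had an adjusted p of 3.7e-06 by limma diffSplice and 6.1e-05 by edgeR diffSpliceDGE. PDK3-204 rose by 1.09 on the log2 scale and PDK3-201 fell by 1.18. The call of PDK3-204 as an isoform was lost in 4 of 6 fits that left out a sample, without Dox replicates 2 or 3 or No Dox replicates 1 or 2 (adjusted p = 0.066 to 0.082 by limma). The most abundant isoform, PDK3-202 (12550 bases), is close in length to PDK3-204 and fell by 0.42. PDK3-202 had 9488 estimated counts over the Dox samples and 12582 over the No Dox samples, against 5345 and 2506 for PDK3-204. Its share overlapped between the groups. Exchange of reads among these isoforms was not tested.

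PFKFB2 followed. PFKFB2-201 (3494 bases) held 34.5%, 30.7% and 31.1% in Dox and 15.3%, 19.7% and 15.7% in No Dox. The longer PFKFB2-202 (7073 bases) held 64.8%, 58.0% and 68.2% in Dox and 74.1%, 79.7% and 81.0% in No Dox. The shorter isoform was thus larger in share in every Dox sample. The call had an adjusted p of 1.1e-04 by diffSplice and of 0.12 by diffSpliceDGE, where it was not made. At gene level the count-based log2 fold change of PFKFB2 was -0.11 and that of log2(TPM + 1) was 0.04.

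In PFKFB3 the main isoform lost share. PFKFB3-205 (4157 bases) held 71.1%, 68.7% and 76.4% in Dox and 84.6%, 79.8% and 84.3% in No Dox, and it fell by 0.41 on the log2 scale. PFKFB3-202 (4524 bases) held 11.2%, 13.4% and 10.5% in Dox and 2.55%, 4.98% and 0.36% in No Dox. PFKFB3-203 (4482 bases), of similar length, was at 0 in every Dox sample and at 3.16%, 0% and 4.42% in No Dox. Summed with it, PFKFB3-202 held 5.71%, 4.98% and 4.78% in No Dox, and the ratio of mean shares was 2.27, a sum chosen after the values were seen. The groups did not overlap for PFKFB3-205, PFKFB3-202 or that sum (adjusted p of usage = 1.7e-04 by diffSplice). As an isoform PFKFB3-202 did not pass (adjusted p = 0.067 by limma), and it passed without No Dox replicate 2 or 3 (adjusted p = 0.044 and 0.045 by limma).

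Smaller shifts were measured in enzymes. PFKP-203 (2626 bases) held 95.8%, 95.9% and 95.3% of PFKP in Dox and 91.5%, 92.7% and 92.1% in No Dox, while PFKP-201 (1698 bases) held 2.04%, 2.02% and 2.26% in Dox and 4.69%, 4.97% and 4.51% in No Dox. PFKP-201 fell by 1.37 on the log2 scale, and its share in every Dox sample was below that of every No Dox sample. LDHA-203 (1922 bases) rose by 0.64 while its gene fell, with 5.62%, 5.04% and 4.71% in Dox and 2.34%, 2.86% and 2.83% in No Dox. LDHA-206 (1310 bases) had the largest opposite change, 17.9 ± 0.49% in Dox and 18.8 ± 0.62% in No Dox, with overlapping groups.

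ALDOA-221 (1492 bases) held 51.2%, 53.2% and 53.2% in Dox and 48.54%, 50.05% and 46.93% in No Dox, and ALDOA-206 (1550 bases) held 25.7%, 25.7% and 27.0% in Dox and 29.9%, 27.4% and 30.1% in No Dox. Neither pair overlapped, but the ALDOA call was not made by diffSpliceDGE. In VEGFA, VEGFA-222 (1199 bases) held 9.01%, 8.65% and 8.22% in Dox and 4.29%, 4.74% and 4.19% in No Dox, and rose by 1.04 on the log2 scale. VEGFA-216 (475 bases) held 5.78%, 5.15% and 6.71% in Dox and 8.41%, 6.25% and 9.22% in No Dox, with overlap. When isoforms under 10% of their gene were set aside, the calls of LDHA and VEGFA were lost, since the isoforms that moved are minor ones. PFKP could not be tested in that setting, because only PFKP-203 reached 10%.

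**Figure D5:**
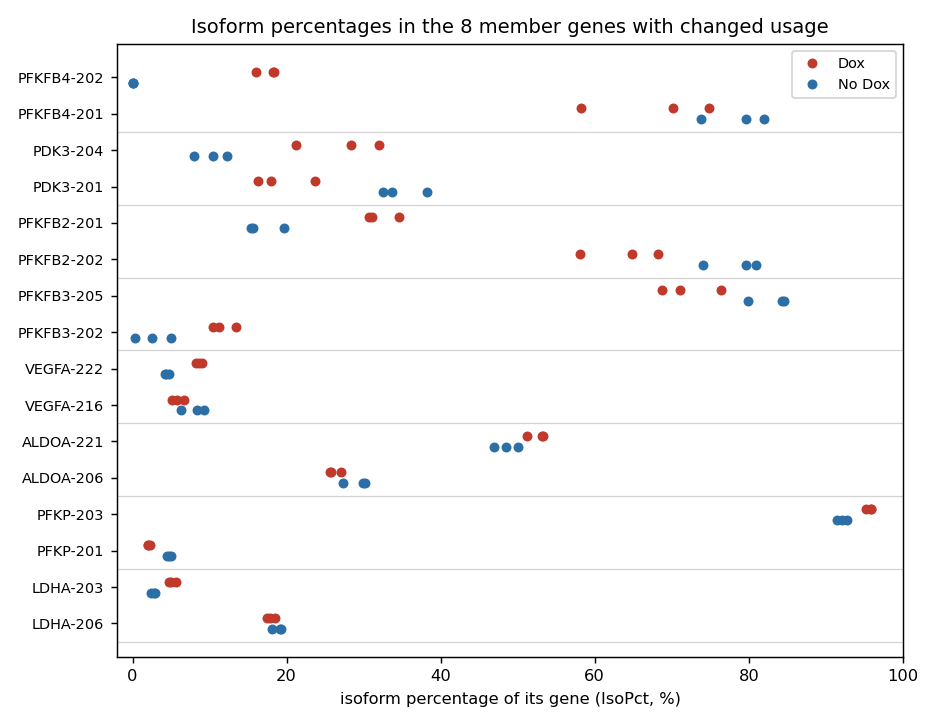
Isoform percentage of the isoform with the largest change and of the one with the largest opposite change in each of the 8 member genes with a usage call, 1 point per sample, Dox above No Dox within an isoform. PDK3-204, PFKFB2-201 and PFKFB3-202 lie further right in Dox, while PFKFB4-202 is at 0 in all No Dox samples.

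Beyond the members, 3 lists of other genes of these pathways were read from the same fit. Among 40 tested genes of sugar entry and side branches, 13 rose, 10 fell and 17 did not pass, with a median log2 fold change of 0.04. The arrestin-like ARRDC4, an inhibitor of glucose uptake, fell by 1.09, and of the GLUT family with at least 5 TPM in a group, SLC2A11 rose by 0.97, SLC2A12 by 0.63 and SLC2A13, which carries inositol, by 0.61. SLC2A6 and SLC2A8 did not pass. Below that level, SLC2A10 rose by 1.49 and SLC2A14 by 0.98, at 1.31 ± 0.04 and 0.20 ± 0.05 TPM in Dox and 0.56 ± 0.16 and 0.12 ± 0.03 TPM in No Dox, while SLC2A4 did not pass. TIGAR, which lowers fructose 2,6-bisphosphate, rose by 0.32. LDHC, the testis dehydrogenase, fell by 0.31, the ADP-dependent glucokinase ADPGK by 0.30 and the glucose 6-phosphatase G6PC3 by 0.27. SLC2A11 stood at 16.7 ± 1.1 TPM in Dox and 8.46 ± 0.08 TPM in No Dox. The calls of TIGAR and LDHC were lost on log2(TPM + 1) (adjusted p = 0.14 for each by limma).

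Among 17 other tested genes of oxygen sensing, 3 rose, 7 fell and 7 did not pass, with a median of -0.05. The ubiquitin ligase SIAH2, which degrades prolyl hydroxylases, fell by 0.29, LIMD1, a scaffold of the VHL complex, by 0.21, the deubiquitinase USP20 by 0.18, SIAH1 by 0.13 and ARNT, the partner of HIF-1 alpha, by 0.10. Of the coactivators, EP300 fell by 0.14 and CREBBP rose by 0.16. CITED2, which competes with HIF-1 alpha for them, rose by 0.10. Below 5 TPM, EPAS1 had the largest change of this list and rose by 0.49. EPAS1 averaged 2.23 ± 0.20 TPM in Dox and 1.51 ± 0.15 TPM in No Dox. The calls of SIAH1, ARNT and CITED2 were lost in 5 to 7 alternatives each and those of USP20 and EP300 only on log2(TPM + 1).

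Of 51 tested hypoxia targets in a further list, 17 rose, 17 fell and 17 did not pass, with a median of -0.03. NDRG1, a hypoxia and stress response gene, had the largest change, a log2 fold change of -2.02 ± 0.04 (SE), with 37.5 ± 2.3 TPM in Dox and 146.0 ± 10.1 TPM in No Dox. The repressor BHLHE40 fell by 0.53, the chemokine receptor CXCR4 by 0.44, the glycogen synthase GYS1 by 0.40, CA12 by 0.30 and the histone demethylase KDM6B by 0.30. The cyclin CCNG2 rose by 0.82 and the lipoprotein receptor VLDLR by 0.32. The calls of VLDLR and KDM6B were lost on log2(TPM + 1) (adjusted p = 0.073 and 0.51 by limma). In these lists 57.5%, 58.8% and 66.7% of tested genes were called, beside 51.4% of all genes. Neither direction prevailed among the hypoxia targets, and the list of sugar entry and side branches had 13 rises and 10 falls. The 17 enzymes from hexokinase to lactate dehydrogenase had 12 falls (70.6%) and 2 rises (11.8%), with a median of -0.20. Among all genes tested 26.5% fell and 24.9% rose.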

How the data were processed

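RNA-seq of 6 samples (3 Dox, 3 No Dox) was analysed from isoform tables. Per the labels and methods, the authors made stranded mRNA libraries, trimmed with cutadapt, mapped to human GRCh38 with STAR and quantified with RSEM; for their versions and the strand setting, the sources used here give nothing. The deposited expected counts are RSEM estimates that are neither normalized nor always whole. The deposited TPM values are scaled for isoform length and sample total, and the deposited percent per isoform (IsoPct) splits each gene's TPM among its isoforms. Depth was about even between the groups, and no counting interval was set on model estimates.

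Counts were summed per gene, rounded to whole numbers and tested over all genes with edgeR 4.0.16 (glmQLFit, glmQLFTest, TMM, filterByExpr) in R 4.3.3. Single isoforms went through limma-voom (limma 3.58.1), and usage was tested with diffSplice (Simes). P-values are two-sided and adjusted over all features (Benjamini-Hochberg), with a threshold of 0.05. Tests were checked on simulated data. There, when each isoform had its own dispersion, more usage calls than the nominal share were false, so each is given with its isoform percentages.

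The members and lists were chosen with earlier results of these data known. Values per sample are given for called members with an absolute log2 fold change of at least 0.3, for hexokinases, phosphofructokinases, HIF1A, VHL, EGLN1, LDHA and SLC2A1, and for genes called for usage whose mean TPM was 5 or more in each group. Up to 8 called genes of at least 5 TPM in a group with the largest changes were named per further list. The values per sample of ALDOC, PDK1, GAPDH and the step sums, and the mention of PKM, PFKFB4 and EPAS1, were chosen after they were seen. Alternatives were DESeq2 1.42.0, other scalings and filters, log2(TPM + 1) with limma, pseudogene counts added, a fold minimum, a block for the replicate number, and fits without each sample in turn. Human sequences and coordinates were not used here.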

Additional observations from a re-analysis of the deposited data

How the results depend on the processing

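The 24 called members kept their direction in 312 recomputed values under alternatives with no fold minimum, and 20 kept the call in each; the 7 lost calls concern ALDOC, PGAM1, VHL and VEGFA, with values given above. The count of changed members was 22 to 26 under the other tools, scalings and filters and 23 to 26 with 5 of the 6 samples. With an absolute log2 fold change of at least 1 required, 0 members changed (0 fell, 0 rose), as did 5 other pathway genes. Usage changed in 4 member genes where 10 points or more were required. Changed member isoforms numbered 29 to 34 when a sample was left out and 61 with DESeq2.

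Signs turned only in members that did not pass: GAPDH to 0.028, LDHB to 0.0083 and EGLN1 to 0.022 with library size alone, and GAPDH to 0.019, PFKFB2 to 0.043 and EGLN1 to 0.066 on log2(TPM + 1). When a sample was left out, EGLN1 ranged from -0.0498 to 0.0023, BNIP3 from -0.0109 to 0.108 and the share of SLC16A3 from -0.0557 to 0.0196 points. The causes were not tested.

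Replicate numbers were not taken as pairs: deviations of samples with the same number correlated at 0.0387, 0.0281 and 0.057, though each sample correlated best with its own number. With the replicate number as a block, 26 members changed (19 fell, 7 rose), with PFKFB2 and P4HA1 added as lower (adjusted p = 0.033 and 0.031 by edgeR), as did 39 member isoforms, usage in 9 member genes and 70 other pathway genes, and RBFOX1 rose by 4.55. The call of PFKFB4-202 was lost there (adjusted p = 0.0505 by limma). SLC16A3, ANKRD37 and CA9 had the fewest counts among the members.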

Other observations

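Minor isoforms of ENO1 moved against their gene. ENO1-217 (1782 bases) held 0.33%, 0.37% and 0.31% of ENO1 in Dox and 0.03%, 0.01% and 0.02% in No Dox, and its log2 fold change was 3.67. ENO1-203 held 0.85 ± 0.04% in Dox and 0.38 ± 0.01% in No Dox, and ENO1-206 held 0.99 ± 0.04% in Dox and 0.46 ± 0.04% in No Dox (SD, n = 3 each). These 3 isoforms rose by limma-voom while ENO1-201, ENO1-210 and ENO1-215 fell. The usage of ENO1 was called by edgeR diffSpliceDGE (adjusted p = 2.3e-11) and not by limma diffSplice (adjusted p = 0.98). These isoforms were chosen after their values were seen.

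PFKFB4, which lies below 5 TPM, had a usage call (adjusted p = 0.0021 by limma diffSplice). PFKFB4-202 (1491 bases) held 18.4%, 16.0% and 18.2% of it in Dox and 0% in each No Dox sample. It had 82.4 estimated counts over the Dox samples and 0 over the No Dox samples. As that 0 is a model estimate, no fold is given for PFKFB4-202. Its call as an isoform was lost in every fit that left out a sample (adjusted p = 0.068 to 0.13 by limma), and also with a minimum mean of 10 counts (adjusted p = 0.080). PFKFB4-207 (1733 bases) was at 0 in every Dox sample and at 3.97%, 6.01% and 7.14% in No Dox. Over both isoforms the estimated counts were 82.4 in Dox and 30.8 in No Dox, and the ratio of mean shares was 3.07, without overlap. That sum was chosen after the values were seen. PFKFB4-201, at 67.8 ± 8.6% in Dox and 78.5 ± 4.2% in No Dox, had overlapping groups.

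Pseudogenes of the enzymes took at most 0.68% of the summed counts in any sample, apart from those of SLC2A3. LDHAP4 had a log2 fold change of -0.34, as against -0.31 for LDHA, and TPI1P2 one of 0.35, as against -0.24 for TPI1.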
